A study of Mus musculus with 2 samples.

Results

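The enzymes encoded by 10 genes carry out or feed the de novo synthesis of purine nucleotides, and their messenger RNAs were followed here across the cells of the small intestine of mice in which Apc can be deleted from the epithelium. The 10 genes (Prps1, Ppat, Gart, Pfas, Paics, Adsl, Atic, Impdh1, Impdh2 and Gmps) were taken by symbol from the 31053 genes of the count tables, and all 10 were present and had unique molecular identifiers (UMIs, each marking 1 captured transcript) in both animals. They were chosen by pathway, not by level.

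The 2 samples form 1 group, labelled APC: single-cell 3′ RNA libraries of the proximal small intestine of 2 mice of genotype VilCreER Apc fl/fl, in which Cre recombinase is driven by the Villin promoter, active in intestinal epithelium, and floxed Apc is deleted after tamoxifen. Each mouse had 2 intraperitoneal injections of 2 mg tamoxifen 24 h apart and was sampled at day 4. Viable DAPI-negative cells were sorted with no selection for epithelium. There was no group with intact Apc, so levels could be compared between cell types of these mice but not with normal tissue. UMIs of Apc itself (58.8 and 70.8 counts per 1000000 UMIs, CPM, in crypt-progenitor-like cells of mouse 1 and mouse 2) come from the 3′ end, outside the floxed exons, and check nothing about the deletion. The labels used here give neither the age nor the sex of the mice.

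De novo synthesis builds the purine ring on ribose phosphate. PRPP synthetase (Prps1) makes the activated ribose, PPAT commits it to the pathway, and GART, PFAS, PAICS, ADSL and ATIC complete the ring as inosine monophosphate. ADSL also acts in the branch to AMP, and IMPDH and GMP synthetase lead to GMP. Salvage enzymes reuse preformed bases and nucleosides, and the formyl groups of the ring come from folate one-carbon metabolism. The transcription factor MYC is known to induce many of these genes through sites that hold CACGTG.

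The gene start regions of 4 members are shown because they illustrate 2 arrangements: the divergent pair Ppat and Paics, and the 3 members (Paics, Atic and Impdh2) in which CACGTG, printed in capitals, was found. Each is 300 bases, from 250 before to 50 after the RefSeq start on GRCm38.p6, 5′ to 3′ on the gene's strand; Ppat is chr5:76951529-76951828 (minus strand), Paics chr5:76951052-76951351 (plus), Atic chr1:71556906-71557205 (plus) and Impdh2 chr9:108560186-108560485 (plus).
Ppat: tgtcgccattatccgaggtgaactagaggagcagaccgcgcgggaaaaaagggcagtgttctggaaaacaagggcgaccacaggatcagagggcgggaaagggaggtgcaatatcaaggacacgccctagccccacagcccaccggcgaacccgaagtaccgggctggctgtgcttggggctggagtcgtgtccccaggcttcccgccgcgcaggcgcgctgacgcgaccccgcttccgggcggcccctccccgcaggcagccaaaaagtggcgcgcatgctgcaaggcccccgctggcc
Paics: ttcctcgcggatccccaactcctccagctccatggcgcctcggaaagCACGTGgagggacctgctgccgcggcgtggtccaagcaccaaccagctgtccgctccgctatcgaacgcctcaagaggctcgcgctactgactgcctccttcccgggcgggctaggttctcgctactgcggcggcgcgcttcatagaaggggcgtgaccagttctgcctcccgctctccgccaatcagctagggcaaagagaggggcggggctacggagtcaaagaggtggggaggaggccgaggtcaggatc
Atic: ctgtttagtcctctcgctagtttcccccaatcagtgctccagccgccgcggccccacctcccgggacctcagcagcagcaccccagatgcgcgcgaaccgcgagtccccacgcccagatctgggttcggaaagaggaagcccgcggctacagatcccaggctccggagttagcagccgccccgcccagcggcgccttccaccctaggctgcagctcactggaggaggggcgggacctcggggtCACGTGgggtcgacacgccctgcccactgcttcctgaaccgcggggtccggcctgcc
Impdh2: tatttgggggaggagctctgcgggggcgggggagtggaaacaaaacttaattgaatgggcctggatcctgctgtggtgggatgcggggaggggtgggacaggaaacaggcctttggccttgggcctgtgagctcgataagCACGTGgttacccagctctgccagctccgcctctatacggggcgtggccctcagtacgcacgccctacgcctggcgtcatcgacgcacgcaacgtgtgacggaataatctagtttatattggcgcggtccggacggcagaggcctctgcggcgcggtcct
CACGTG reads the same on both strands. Its first base lay 203 bases before the Paics start, 7 before that of Atic and 110 before that of Impdh2. It was found in 3 of the 9 members with a RefSeq promoter entry and in 7.15% of 32851 promoters of the same length. CCAAT, searched on both strands, was found in 5 of the 9 against 37.4% of all promoters, and GGGCGG in 9 of 9 against 35.7%. Base composition moved with these counts: the 10 entries of the 9 members (2 for Impdh1) held 51.3% to 71.3% G and C, against a median of 52.7% over all promoters, and its part in them was not tested. A match is a string of letters and does not show that a factor bound there.

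Ppat and Paics lie head to head on chromosome 5. In the GRCm38 gene annotation Ppat runs on the minus strand from 76913249 to 76951578 (10 exons) and Paics on the plus strand from 76951307 to 76967509 (9 exons), so that their start sites were 271 bases apart and the 2 gene bodies overlapped over that stretch. The other members were spread over chromosomes 16 (Gart), 11 (Pfas), 15 (Adsl), 1 (Atic), 6 (Impdh1), 9 (Impdh2), 3 (Gmps) and X (Prps1).

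After filtering, 7941 cells of mouse 1 and 6957 of mouse 2 remained, with a median of 4381 and 2803 UMIs, from libraries of 85670711 and 38716743 UMIs. Crypt-progenitor-like cells numbered 122 and 30 and enterocyte-like cells 592 and 134. Leukocyte-like cells made up 6550 and 6613 of the remainder. A leukocyte-like cell was called cycling when it held UMIs of at least 3 of 16 cell-cycle genes (169 and 125 cells) and resting when it held none (5147 and 5576). Median depth differed with these groups: 17787 and 16447 UMIs in cycling against 3884 and 2681.5 in resting leukocyte-like cells, and 11845.5 and 17773.5 in crypt-progenitor-like against 4990.5 and 3085 in enterocyte-like cells. In 3′ data a count does not scale with transcript length and depends on capture of each 3′ end, so levels are compared between cells and not between genes. They are given as CPM of the summed cells of a class in 1 mouse, in the order mouse 1 and mouse 2.

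Marker genes were summed in the named classes. The crypt and enterocyte lists are those that named the clusters, so their sums describe the classes and do not check the names. Summed crypt markers were 1935 and 2174 CPM in crypt-progenitor-like against 503 and 529 CPM in enterocyte-like cells, and summed enterocyte markers 524 and 2501 against 37392 and 93191 CPM. Leukocyte RNA was also present in both epithelial classes: 14 listed leukocyte genes summed to 7338 and 561 CPM in crypt-progenitor-like cells (14 and 8 of them with a UMI) and to 7784 and 1350 CPM in enterocyte-like cells (14 and 12). Ptprc, the pan-leukocyte marker, had a UMI in 12.3% and 13.3% of crypt-progenitor-like and 6.42% and 2.99% of enterocyte-like cells. The kept cells of the 2 libraries shared 16 barcodes, 7 of them in the same class, and a doublet caller marked 1 and 0 cells, so that doublets were not removed by it.

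Taken as whole classes, whatever their cycling state, crypt-progenitor-like cells held the highest levels of the pathway. The 10 genes together made up 958 and 781 CPM there, against 334 and 361 in myeloid-like, 326 and 360 in T cell or innate lymphoid-like, 347 and 269 in B cell-like, 254 and 346 in Paneth-like, 137 and 108 in enterocyte-like and 106 and 115 in plasma cell-like cells. Among these 7 classes the mean of the mice was highest in crypt-progenitor-like cells for all 10 genes, and for 9 of them both mice lay above every value of the other 6 classes. Impdh1 was the exception, at 8.79 and 29.1 CPM from 16 UMIs in each mouse, a range that overlapped the Paneth-like cells (9.70 and 19.4). Tuft-like cells were left out of this order because their sums held between 0 and 8 UMIs of each gene.

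**Figure D1:**
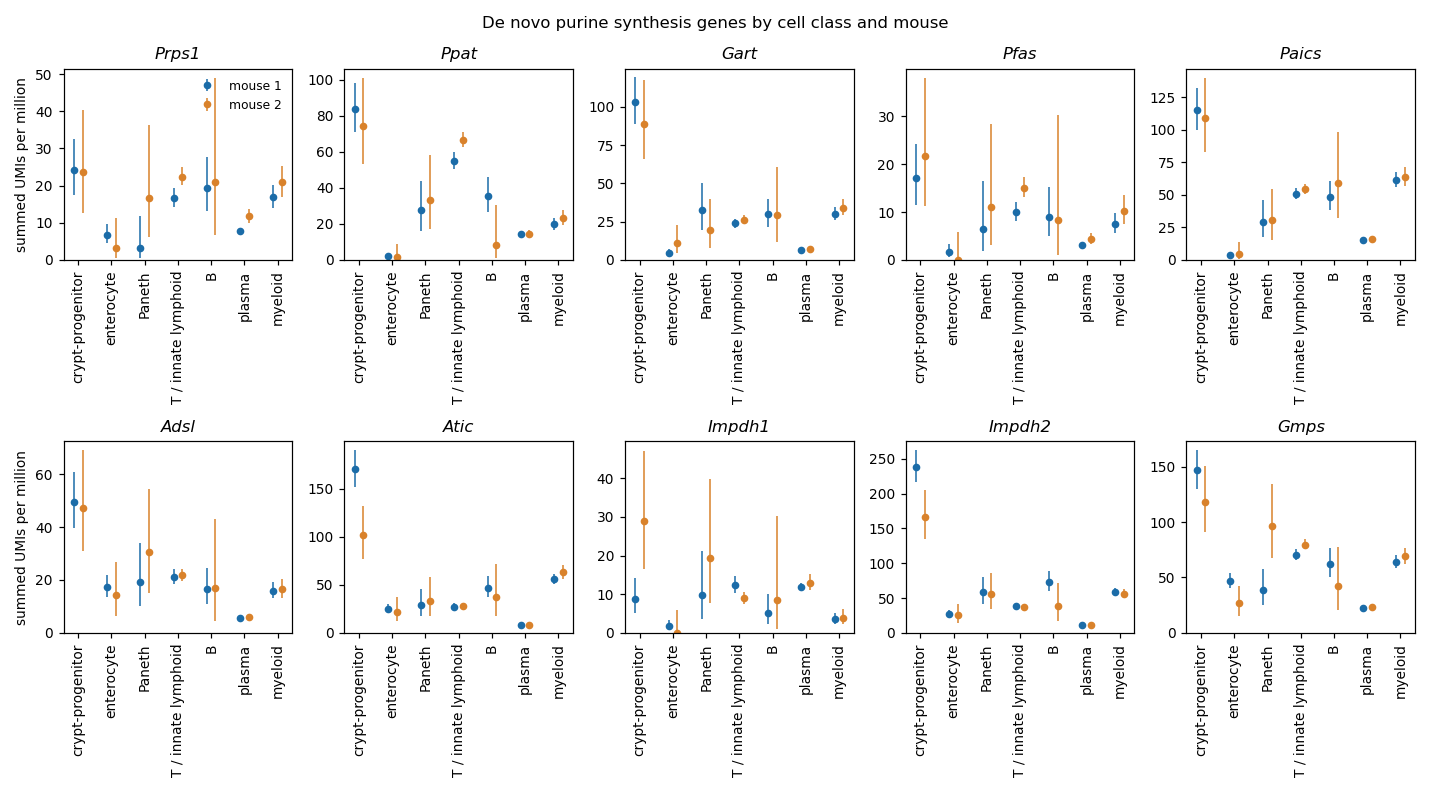
Level of each of the 10 genes (CPM, counts per 1000000 UMIs) in the summed cells of each class; each point is 1 mouse and error bars are exact 95% Poisson intervals, which cover counting error only. Among the classes shown, which leave out tuft-like cells, both mice were highest in crypt-progenitor-like cells for 9 genes. Ppat, Paics and Pfas were lowest in enterocyte-like cells.

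Prps1, which supplies the activated ribose, was at 24.2 and 23.6 CPM in crypt-progenitor-like cells, followed closely by T cell or innate lymphoid-like cells at 16.7 and 22.4 and B cell-like cells at 19.3 and 21.0. Those 2 leukocyte classes overlapped each other. Enterocyte-like cells held 6.65 and 3.14 CPM of Prps1, overlapping the Paneth-like value of 3.23 in mouse 1.

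Ppat, the committed step, was at 83.5 and 74.5 CPM in crypt-progenitor-like cells and at 54.9 and 66.4 in T cell or innate lymphoid-like cells, the next class. Myeloid-like cells held 19.8 and 23.2 CPM and plasma cell-like cells 14.1 and 14.5. Enterocyte-like cells held 2.14 and 1.57, from 9 UMIs and 1 UMI (exact 95% Poisson intervals 0.978 to 4.06 and 0.0397 to 8.74 CPM, for counting error only). Its divergent neighbour Paics ran in another order: 115 and 109 CPM in crypt-progenitor-like, 61.7 and 63.7 in myeloid-like, 50.8 and 54.8 in T cell or innate lymphoid-like and 3.80 and 4.71 in enterocyte-like cells. So myeloid-like cells lay below T cell or innate lymphoid-like cells for Ppat and above them for Paics, in both mice; this difference was not tested.

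The enzymes that complete the ring were at 103 and 89.0 CPM (Gart), 17.0 and 21.8 (Pfas), 49.4 and 47.2 (Adsl) and 170 and 102 (Atic) in crypt-progenitor-like cells. Pfas was sparse everywhere, with 7 UMIs and 0 UMIs in enterocyte-like cells, where 0 of 637253 UMIs in mouse 2 allows up to 4.71 CPM (3 UMIs). Atic reached 56.0 and 63.1 CPM in myeloid-like cells, and plasma cell-like cells, with 7.88 and 8.21, lay below every other of the 7 classes. Plasma cell-like cells were lowest by mean for 5 genes (Gart, Adsl, Atic, Impdh2 and Gmps) and enterocyte-like cells for the remaining 5. Immunoglobulin and other plasma cell markers made up much of the UMIs of plasma cells (228031 and 264933 CPM in resting ones), which lowers the CPM of every other gene there, so that a low share and a low number of transcripts per cell are different quantities.

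At an equal 1000 UMIs per cell, the number of the 10 genes seen in a cell averaged 0.882 and 0.689 in crypt-progenitor-like, 0.110 and 0.0743 in enterocyte-like, 0.401 and 0.420 in cycling leukocyte-like and 0.232 and 0.309 in resting leukocyte-like cells. Without thinning these averages were 5.36 and 5.63, 0.684 and 0.433, 3.89 and 3.78, and 1.23 and 0.979. The order of the 4 groups was the same with and without thinning.

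The first comparison asked how crypt-progenitor-like cells, which divide, differ from the enterocyte-like cells of the same mice, of which 5 and 1 were cycling. All 10 genes were higher in crypt-progenitor-like cells and passed the test, where 16.4% of the 8297 genes tested were higher and 16.8% lower (edgeR quasi-likelihood test on the summed counts, Benjamini-Hochberg adjusted p under 0.05). The median log2 fold change of the members was 3.10, beside 0.02 over all genes tested. The test compares sums from 2 mice. The fit also held the Paneth-like and tuft-like sums of both mice. Its p-values rest on a spread between mice that these classes share and that is moderated over all genes. With the compared classes alone, 10 members were also higher, a count not set against the share of all genes higher in that fit.

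Ppat and Paics, the divergent pair, showed the largest fitted differences. Their enterocyte-like levels rested on 10 and 19 UMIs over both mice. In mouse 2 alone, Impdh1 (5.95) and Pfas (5.54) lay above Ppat (5.14) and Paics (4.34). Impdh1 and Pfas had 0 UMIs in the enterocyte-like cells of that mouse. Ppat was higher by a log2 fold change of 5.02 (SE 0.49, n = 2 mice, 32.5-fold, edgeR adjusted p = 0.000206) and Paics by 4.58 (SE 0.40, 23.9-fold, edgeR adjusted p = 0.000119). The mice did not overlap for any of the 10 genes. Gart differed by 3.70 (SE 0.52, edgeR adjusted p = 0.000775) and Pfas by 3.55 (SE 0.72, edgeR adjusted p = 0.00501).

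The remaining members of the ring pathway differed less. Atic, at 170 and 102 against 25.2 and 22.0 CPM, had a log2 fold change of 2.33 (SE 0.36, edgeR adjusted p = 0.00128). Adsl, at 49.4 and 47.2 against 17.3 and 14.1 CPM, had 1.39 (SE 0.37, edgeR adjusted p = 0.0166). Prps1 differed by 1.88 (SE 0.62, edgeR adjusted p = 0.0443), the weakest call of the set. It did not pass with total UMIs as the only scaling (adjusted p = 0.0503), with no filter on low counts (0.0572) or in DESeq2 (0.204), and Adsl did not pass without the filter (0.0741).

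Of the branch to GMP, Impdh2, the widespread form of IMP dehydrogenase, was at 239 and 167 CPM in crypt-progenitor-like and 26.9 and 25.1 in enterocyte-like cells, a log2 fold change of 2.77 (SE 0.48, edgeR adjusted p = 0.00234). Gmps, at 147 and 118 against 46.8 and 26.7 CPM, differed by 1.60 (SE 0.40, edgeR adjusted p = 0.0128). Impdh1, its sister enzyme, rested on 16 UMIs in each crypt-progenitor-like sum and on 7 UMIs and 0 UMIs in enterocyte-like cells; the fitted log2 difference was 3.42 (SE 0.93, edgeR adjusted p = 0.0218), but 2.11 in mouse 1 alone and 5.95 in mouse 2 alone, and DESeq2 gave an adjusted p of 0.0616. Mouse 1 and mouse 2 taken alone also gave 4.31 and 2.90 for Gart, 3.03 and 5.54 for Pfas and 1.79 and 2.68 for Prps1, all higher.

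Depth moved with this comparison. Among cells of 10000 to 40000 UMIs (73 and 21 crypt-progenitor-like, 113 and 18 enterocyte-like), 7 of the 7 members with enough counts to be tested were higher; Prps1, Impdh1 and Pfas were not tested. The share of all genes higher in this window is not given here, so the count is not set against it. Leaving out every cell with a Ptprc UMI kept the count at 10 of 10, again not set against the share of all genes.

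**Figure D2:**
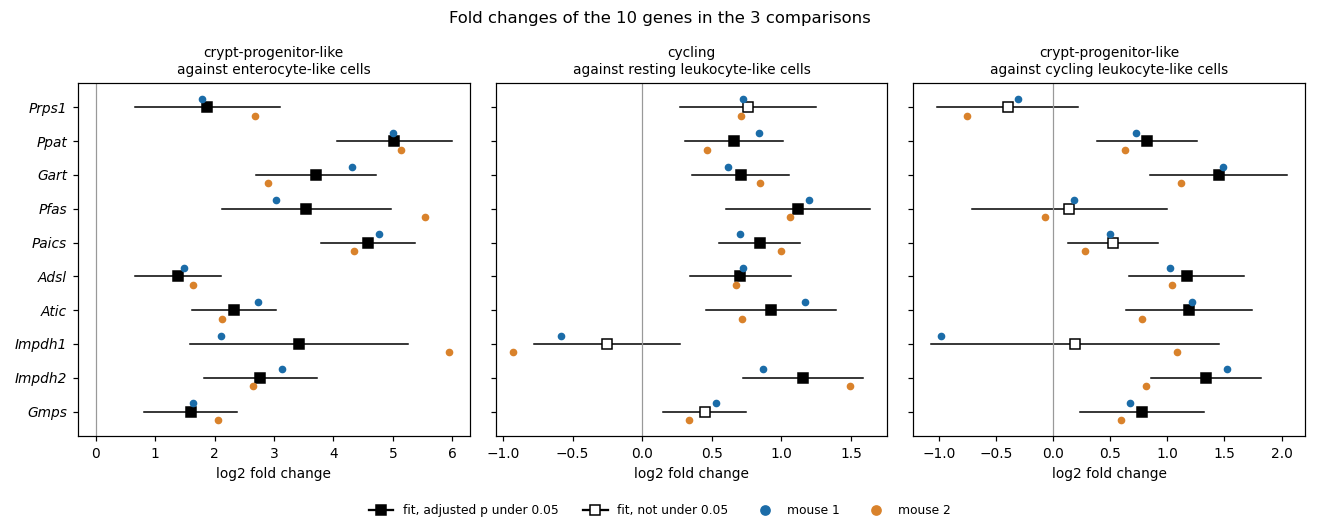
Log2 fold change of each gene in the 3 comparisons with its 95% interval from the standard error (bars) and the value of each mouse alone (points); filled squares passed an edgeR adjusted p under 0.05. All 10 genes lie above 0 for crypt-progenitor-like against enterocyte-like cells, with Ppat at 5.02 and Paics at 4.58.

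The second comparison asked whether the pathway also differed between cycling and resting leukocytes, matched by lineage. Plasma cell-like (63 and 35 cycling, 1585 and 411 resting) and myeloid-like cells (85 and 58 cycling, 604 and 493 resting) had at least 20 cells of each state in each mouse and entered the fit. Of the 10 members, 7 were higher in cycling cells and 0 lower, where 9.04% of 9856 genes were higher and 6.39% lower by the same edgeR test. The members' median was 0.73, beside -0.05 over all genes. The 16 cell-cycle genes, which chose the cycling cells, were all higher by construction.

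Impdh2 and Pfas showed the largest fold changes of the members that passed. Impdh2 was at 10.6 and 7.68 CPM in resting and 40.1 and 61.8 in cycling plasma cell-like cells. In myeloid-like cells it was at 51.3 and 50.5 in resting and 83.0 and 96.8 in cycling ones. Its log2 fold change over both lineages was 1.16 (SE 0.22, edgeR adjusted p = 0.00736), and every cycling value lay above the resting values of its lineage. Pfas differed by 1.12 (SE 0.26, edgeR adjusted p = 0.0201).

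Paics, which was at 14.2 and 11.8 CPM in resting and 42.1 and 49.99 in cycling plasma cell-like cells, differed by 0.84 over both lineages (SE 0.15, edgeR adjusted p = 0.00497). In myeloid-like cells it moved from 50.8 and 54.3 to 83.0 and 99.5 CPM. Atic differed by 0.92 (SE 0.24, edgeR adjusted p = 0.0284): it was at 6.77 and 5.83 against 31.3 and 29.4 CPM in plasma cell-like cells, and at 46.1 and 66.0 against 92.3 and 69.0 in myeloid-like cells. In mouse 2 the myeloid-like values were close. Gart (0.71, SE 0.18), Adsl (0.71, SE 0.19) and Ppat (0.66, SE 0.18) passed with edgeR adjusted p of 0.0269, 0.0304 and 0.0337.

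The other 3 members, Gmps, Prps1 and Impdh1, did not pass. Gmps had a log2 fold change of 0.45 (edgeR adjusted p = 0.0742) and Prps1 of 0.76 (0.0658, and 0.0325 with the mouse as a block). Impdh1 was at -0.25 (edgeR adjusted p = 0.825), and 0.31 with total UMIs as the only scaling, which did not pass either.

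**Figure D3:**
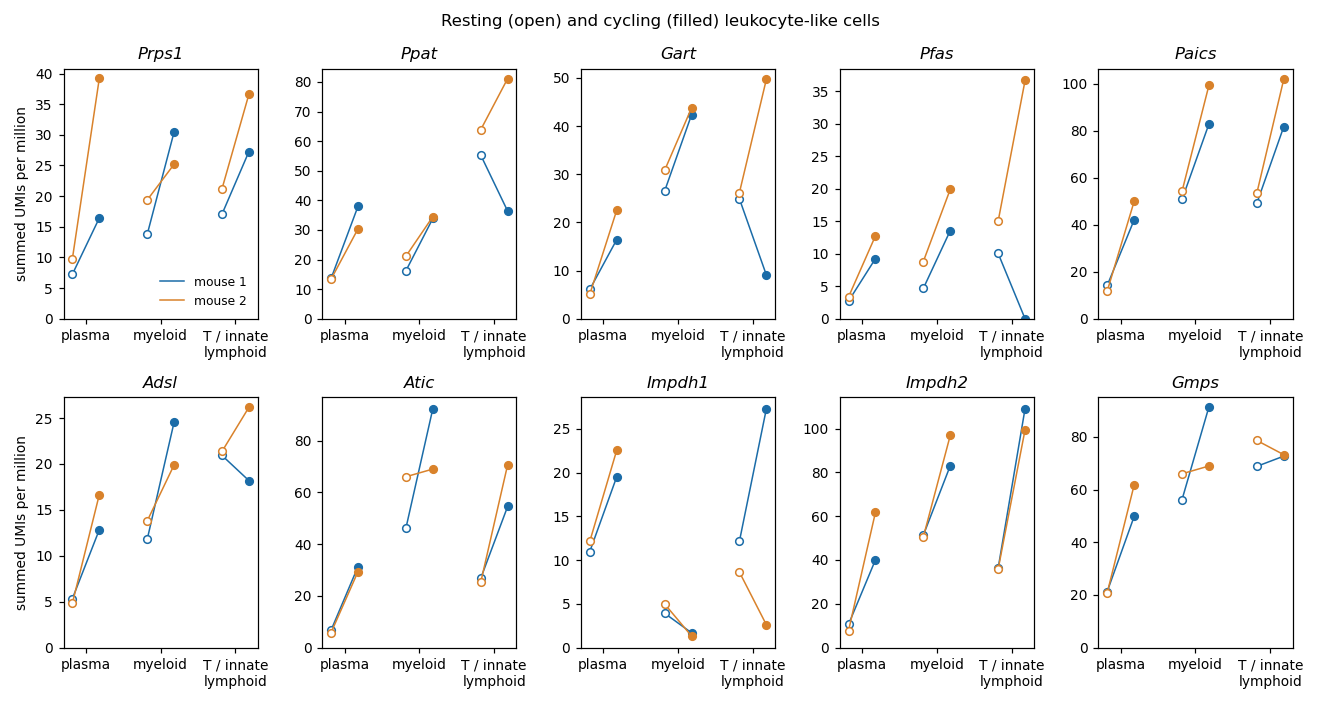
Level of each gene (CPM, counts per 1000000 UMIs) in resting and cycling cells of each leukocyte lineage, with 1 line per mouse. Impdh2, Paics and Atic were higher in cycling plasma cell-like cells of both mice, while myeloid-like Atic in mouse 2 was at 66.0 in resting and 69.0 in cycling cells.

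This comparison depended on how cells and scaling were chosen, more than the first did. The default scaling factors (TMM) of cycling plasma cell-like sums lay 0.78 and 0.88 log2 units above those of the resting ones, against 0.08 and 0.06 in myeloid-like cells, and plasma cell markers fell from 228031 and 264933 CPM in resting to 148710 and 115453 in cycling plasma cell-like cells. With total UMIs as the only scaling, 9 members were higher, but the median of all genes also moved, from -0.05 to 0.38, and the split of all calls went from 891 higher and 630 lower to 1322 and 137. The same change of scaling moved the median of all genes from 0.02 to 0.21 in the first comparison and from 0.02 to 0.22 in the third.

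Depth and cluster also moved with cell state. Among cells of 10000 to 40000 UMIs with at least 10 cells of each state, 3 members were higher (Pfas, Paics and Impdh2). When cycling was called from Mki67 or Top2a alone, 1 member was higher. The numbers of all genes called under these settings are given in the closing section, without the number tested. Of the cycling myeloid-like cells, 77 and 61 of 143 lay in 2 clusters that held 405 and 97 of the 1097 resting ones. Of the cycling plasma cell-like cells, 54 of 98 lay in a cluster of cycling cells that were assigned to lineages cell by cell from markers and 35 in another, whereas most resting ones (1466 of 1996) were in yet another. With cluster in place of lineage, at least 10 cells sufficed and only those 2 myeloid-like clusters could enter (one with 14 cycling cells in mouse 2), so the plasma cell-like cells dropped out as well; 0 of 8 members tested passed, where 150 of all genes were higher and 32 lower. Among cells of 3000 to 10000 UMIs with the same minimum only myeloid-like cells entered (22 and 12 cycling), and 0 of 9 members passed, where 121 of all genes were higher and 128 lower; Gart (-0.03) and Atic (-0.29) then lay below 0. The term, the minimum and the lineages changed together in these settings. The part of depth, cluster and cycling in the differences was not tested separately.

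**Figure D4:**
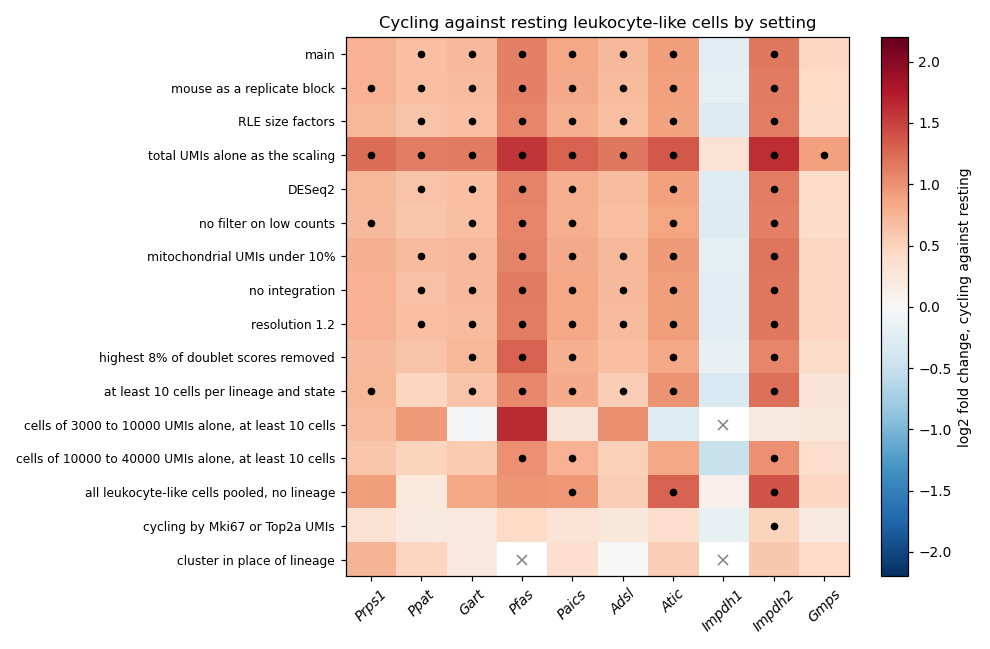
Log2 fold change of each gene (columns) between cycling and resting leukocyte-like cells under each way of processing (rows), on a colour scale; a dot marks an adjusted p under 0.05 and a cross a gene not tested. In the top row, the default, 7 members carry a dot, and 0 do with cluster in place of lineage or among cells of 3000 to 10000 UMIs.

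Each lineage was then fitted on its own term, with at least 10 cells per state so that T cell or innate lymphoid-like cells (14 and 32 cycling, 2605 and 4587 resting) could enter; this minimum was chosen after seeing the data. In plasma cell-like cells Impdh2 (log2 fold change 1.45, SE 0.23, edgeR adjusted p = 0.00210), Atic (1.31, SE 0.28, edgeR adjusted p = 0.0105) and Paics (0.85, SE 0.20, edgeR adjusted p = 0.0202) were higher, 3 of 10 members against 6.81% of 11286 genes higher. In T cell or innate lymphoid-like cells Impdh2 (1.44, SE 0.26, edgeR adjusted p = 0.00722) and Atic (1.27, SE 0.31, edgeR adjusted p = 0.0349) were higher, 2 of 10 against 3.97%. In myeloid-like cells 0 of 10 passed in either direction, where 3.74% of genes were higher; Paics (0.73, edgeR adjusted p = 0.0524) and Impdh2 (0.76, edgeR adjusted p = 0.0746) came nearest.

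No member's change was shown to differ between lineages. Of 30 tests of that difference (10 genes and 3 pairs of lineages), edgeR called 0 at an adjusted p under 0.05, with or without the mouse as a block, and 0 had an unadjusted p under 0.05; over all genes the same fits called 48, and 224 with the block. Resting T cell or innate lymphoid-like cells held Ppat at 55.3 and 63.8 CPM and cycling ones at 36.4 and 81.1, values that overlapped. The cycling value of mouse 2 lay above its crypt-progenitor-like value of 74.5 CPM, and that of mouse 1 lay below.

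Impdh1 and Impdh2 encode the same enzymatic step and divided differently among cell types. Impdh2 made up 96.5% and 85.2% of the Impdh UMIs in crypt-progenitor-like cells (exact 95% binomial intervals 94.3% to 98.0% and 77.1% to 91.3%, for counting error only), 94.4% and 93.5% in myeloid-like and 75.6% and 80.6% in T cell or innate lymphoid-like cells. In plasma cell-like cells it made up 48.2% and 47.7% (intervals 45.3% to 51.1% and 42.2% to 53.3%), below every other of the 7 classes in both mice. The share is a ratio within the same cells, so the immunoglobulin share of plasma cells does not enter it.

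Within plasma cell-like cells the share was 49.2% and 38.8% in resting and 67.2% and 73.3% in cycling cells (intervals for cycling 57.9% to 75.7% and 62.6% to 82.2%), and the mice did not overlap. With 2 values against 2 an exact permutation test cannot go below a two-sided p of 0.333, so no test is given. In CPM both genes were higher in cycling plasma cell-like cells, Impdh1 at 19.5 and 22.5 against 11.0 and 12.1 and Impdh2 at 40.1 and 61.8 against 10.6 and 7.68. After TMM scaling Impdh1 was at -0.09 (edgeR adjusted p = 0.900), so its direction there depended on the scaling.

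**Figure D5:**
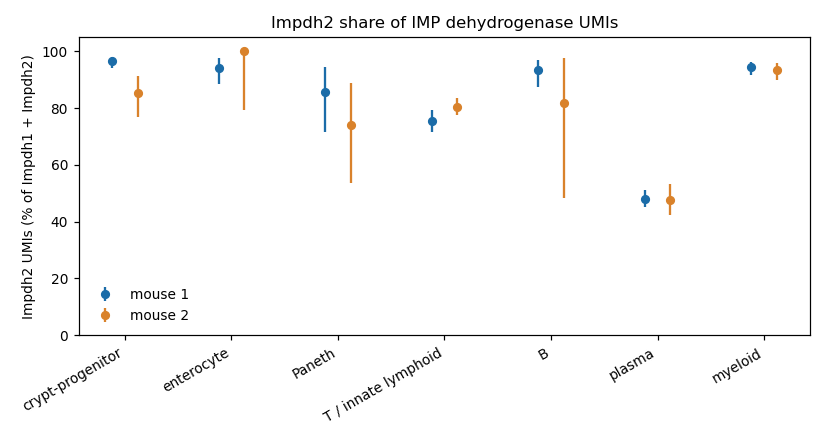
Impdh2 as a percentage of the UMIs of Impdh1 and Impdh2 together, for each class and mouse, with exact 95% binomial intervals. Plasma cell-like cells sit at 48.2% and 47.7%, below the other classes shown.

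The third comparison set crypt-progenitor-like cells against cycling leukocyte-like cells, asking whether dividing cells of either kind held like levels. It shares its crypt-progenitor-like sums with the first comparison and cycling leukocyte-like cells with the second, so the 3 are not independent, and leukocyte lineages were not matched. Of the 10 members, 6 were higher in crypt-progenitor-like cells and 0 lower, in a comparison where 21.3% of 11489 genes were higher and 22.4% lower. The members' median was 0.80, beside 0.02 over all genes.

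Gart, at 103 and 89.0 CPM against 27.1 and 34.8, had a log2 fold change of 1.45 (SE 0.31, edgeR adjusted p = 0.00619). Impdh2, at 239 and 167 against 61.2 and 80.7, had 1.34 (SE 0.25, edgeR adjusted p = 0.00346). Atic, at 170 and 102 against 54.0 and 50.6, had 1.19 (SE 0.28, edgeR adjusted p = 0.0102), and Adsl, at 49.4 and 47.2 against 17.9 and 19.5, had 1.17 (SE 0.26, edgeR adjusted p = 0.00729). The groups did not overlap for any of these.

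Ppat (0.82, SE 0.22, edgeR adjusted p = 0.0178) and Gmps (0.78, SE 0.28, edgeR adjusted p = 0.0490) were also higher. The call of Gmps was lost in 8 of the alternatives tried and that of Ppat in 4. Paics, at 115 and 109 against 60.3 and 76.5 CPM, differed by 0.52 and did not pass (edgeR adjusted p = 0.0653), but did with the mouse as a block (0.0487). Pfas (0.14), Impdh1 (0.19) and Prps1 (-0.40) did not pass; Prps1 was at 24.2 and 23.6 CPM in crypt-progenitor-like and 22.1 and 33.9 in cycling leukocyte-like cells, which overlapped. Among cells of 3000 to 10000 UMIs, where 36 and 6 crypt-progenitor-like cells remained, 1 of 6 members tested was higher, and among those of 10000 to 40000 UMIs 6 were. These counts are not set against the share of all genes higher in each window.

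The cycling leukocyte-like cells were chosen by the 16 cell-cycle genes and the crypt-progenitor-like cells were not, so the values of these genes are a description. Of the 16, 1 was higher in crypt-progenitor-like cells, 3 were lower and 12 did not pass. Mki67, a proliferation marker, was lower in crypt-progenitor-like cells by a log2 difference of -2.07, Cenpe by -1.80 and Cenpf by -0.77, while Nusap1 was higher by 0.85.

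Of 27 listed salvage and interconversion genes, 19 were tested in crypt-progenitor-like against enterocyte-like cells, of which 4 were higher, 6 lower and 9 did not pass (median -0.53), where 16.4% of all genes were higher and 16.8% lower. Those lower in crypt-progenitor-like cells were purine-degrading, salvage or interconversion enzymes. Guanine deaminase Gda was at 7.14 and 9.08 against 823 and 1450 CPM (log2 fold change -7.35). Xanthine dehydrogenase Xdh was at 6.59 and 10.9 against 259 and 290 (-5.26). The others were adenosine deaminase Ada (-3.89), Aprt (-1.64), Guk1 (-1.33) and Pnp (-1.30). Prps2, the second PRPP synthetase gene, was higher, at 76.4 and 114 against 11.9 and 15.7 CPM (2.64), as were Ampd2 (1.90), Itpa (1.28) and Nme1 (1.09). Between cycling and resting leukocyte-like cells 24 were tested, 3 were higher (Nme1 at 0.74 and Hprt at 0.60 among them) and 3 lower (Gda at -2.16, Adssl1 at -1.94 and Xdh at -1.71), shares near the 9.04% and 6.39% of all genes. Gda was at -2.63 in mouse 1 alone and 0.01 in mouse 2 alone. Against cycling leukocyte-like cells, crypt-progenitor-like cells had 8 of 24 higher, Prps2 among them (2.07), where 21.3% of all genes were higher. Adssl1 was lower, with 1 UMI and 0 UMIs in crypt-progenitor-like cells against 17.6 and 18.6 CPM, so that no fold is given.

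Of 12 folate one-carbon genes, 8 were tested in the first comparison and 4 were higher in crypt-progenitor-like cells, beside 16.4% of all genes. Shmt2, the mitochondrial serine hydroxymethyltransferase, was at 52.2 and 69.0 against 2.38 and 3.14 CPM (log2 fold change 4.31, edgeR adjusted p = 0.000349). Shmt1, its cytosolic counterpart, was at 68.1 and 72.7 against 2.38 and 9.42 CPM (3.88). Mthfd2 (2.67) and Mthfd1 (2.03) were the other two, and Aldh1l1, which oxidises formyltetrahydrofolate, was lower (-2.71). In cycling against resting leukocyte-like cells 5 of 8 were higher and 1 lower, beside 9.04% and 6.39% of all genes. Among those higher were Shmt1 (2.95), Mthfd1 (1.18), Shmt2 (1.03) and Mthfd2 (0.81). Crypt-progenitor-like cells exceeded cycling leukocyte-like cells for 5 of 9, beside 21.3% of all genes. Mthfd2l was among them (3.43), on 4 and 8 UMIs in cycling leukocyte-like cells, and so was Aldh1l1, on 19 and 3 UMIs in crypt-progenitor-like and 1 UMI in each cycling leukocyte-like sum.

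Of 6 genes of the MYC network and the amino acid response factor Atf4, 5 were tested. Myc was at 74.2 and 104 CPM in crypt-progenitor-like, 16.4 and 23.5 in enterocyte-like, 18.2 and 21.3 in cycling leukocyte-like and 10.4 and 18.2 in resting leukocyte-like cells. It was higher in crypt-progenitor-like than in enterocyte-like cells (log2 fold change 2.02, edgeR adjusted p = 0.00652) and than in cycling leukocyte-like cells (1.95, edgeR adjusted p = 0.00123). Between cycling and resting leukocyte-like cells 0 of the 5 passed, with Myc at 0.62. Mxd1, an antagonist of MYC, was at 1.65 and 1.82 CPM (3 UMIs and 1 UMI) in crypt-progenitor-like against 72.2 and 176 in enterocyte-like cells (-6.24). Mxi1 (-2.18) was lower too. So was Max (-1.45), another gene of the MYC network.

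The 10 genes were also compared with every other gene by their level over 17 sums of 9 classes. These sums include tuft-like cells, with few UMIs of each member, and the pancreatic acinar-like cells of mouse 1. The mean pattern of the members (log2 CPM, centred per gene) was most like those of Anp32e (a histone chaperone; Pearson's r 0.944), Pkmyt1 (a kinase of the G2 checkpoint, 0.898), the ribosomal protein genes Rpl14 (0.891) and Rpl13a (0.884) and Trmt112 (0.885), out of 11076 genes. Single members correlated with the mean of the others at r from 0.453 (Pfas) to 0.811 (Gmps). The sums share 2 libraries and differ in depth, so these are descriptions.

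Some counts could be shared with near-identical copies. The last 500 bases of Gart matched the annotated copy Gm15964 (100% over 228 bases), which held 28 and 26 UMIs against 1174 and 800 for Gart. Impdh2 matched Impdh2-ps (99.77% over 435 bases) and Ppat matched Gm15175 (91.7% over 132 bases); neither is a row of the count tables. Reads that fit 2 places are usually discarded in counting, so the levels of these 3 genes are uncertain to that extent.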

How the data were processed

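Proximal small intestine (the stretch from 5 to 15 cm) of 2 mice was digested, sorted for viable cells and sequenced as 10x Genomics 3′ libraries. The authors deposited UMI counts per gene and barcode, made with Cell Ranger 6.1.2 against mm10, per the labels; the annotation release is not given in the sources used here. Both tables hold raw counts and no other normalization.

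Barcodes with over 100 genes, over 400 UMIs, under 5% mitochondrial and under 10% haemoglobin UMIs were kept. Cells were integrated over mice and clustered in Seurat 5.3.0 (R 4.3.3; 2000 variable features, 30 dimensions, resolution 0.8), with the members, the other listed genes and the cell-cycle genes held out, and clusters were named from at least 3 markers. The naming rules were revised after the cluster markers were seen. Counts were then added up for each class in each mouse, or per mouse, lineage and state, for classes of at least 20 cells, and tested with edgeR 4.0.16 (quasi-likelihood test, TMM scaling) over all genes that passed its filter on low counts; DESeq2 1.42.0 was an alternative. The scripts were tested on simulated data with known changes and gave 0 calls of wrong sign. True log2 changes of 1 and 2 were recovered in 1.25% and 43.7% of the changed genes tested in the first comparison. These shares were 44.6% and 90.3% in the second and 2.20% and 44.7% in the third. In the simulation all genes shared a single spread and few were changed, unlike in the data. These shares therefore do not measure recovery in the real comparisons. A gene that did not pass can still differ. Copies were sought with BLAST 2.17.0. Doublet scores came from Scrublet in scanpy 1.11.5. Intervals are exact at 95% and cover counting error only.

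Sums of 1 mouse come from 1 animal and library, so mouse numbers pair them. The deviations of same-numbered sums correlated at 0.304 in the first comparison, 0.174 to 0.533 in the second and 0.134 in the third. The members and lists were chosen with earlier results of these data known. From each list the 4 genes with the largest change were named by rule, and the others that passed after their values were seen; some listed genes are not reported here. Alternatives were the scaling, the filter, the mouse as a block, the mitochondrial limit, integration, resolution, doublet scores, the cycling gate, pooling of lineages, depth windows and leaving out a mouse. Total-UMI scaling, the 10000 to 40000 UMI window, at least 10 cells (also with the 3000 to 10000 UMI window), cluster as a term, leaving out Ptprc-positive cells and joining a low-UMI sub-cluster were added after seeing the data. Cells in unnamed clusters were left out, and acinar clusters entered only the correlation of levels over classes.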

Additional observations from a re-analysis of the deposited data

Results flagged for a closer look

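The 10 genes also had UMIs in cells that enter no tested comparison above. In barcodes removed by the filters they summed to 136 CPM in mouse 1 and 263 CPM in mouse 2. In clusters with pancreatic acinar markers, present in mouse 1, they summed to 107 CPM, and in unnamed clusters to 181 CPM in mouse 1 and 266 CPM in mouse 2. These values lie above the limit that a count of 0 allows, and no group of cells here serves as a control for them.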

How the results depend on the processing

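Between crypt-progenitor-like and enterocyte-like cells, 121 of 126 tested member values kept direction and call over 13 alternatives and 5 lost the call (Adsl, Impdh1 and 3 of Prps1). For cycling against resting leukocyte-like cells these numbers were 109 of 147 over 15 alternatives, with 30 calls lost, 5 gained and 3 reversed: Adsl at -0.0033 with cluster in place of lineage, and Gart at -0.027 and Atic at -0.29 among cells of 3000 to 10000 UMIs. For crypt-progenitor-like against cycling leukocyte-like cells they were 109 of 126 over 13, with 14 lost and 3 gained.

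Entering the mouse as a replicate block to use the pairing left 10 members higher in the first comparison, gave 8 in the second (Prps1 at adjusted p = 0.0325) and 7 in the third (Paics at 0.0487), and it raised the genes lower in cycling leukocyte-like cells from 630 to 961. It changed no other member's call. The numbers of all genes higher with the block are not given here, so the member counts are not set against them.

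In the cycling comparison the genes lower numbered 137 with total UMIs as the scaling and 1378 with no filter. They numbered 1242 with at least 10 cells and 278 with lineages pooled. With lineages pooled 3 members were higher, and the number of all genes higher is not given here. The Mki67 or Top2a gate gave 286 higher, 93 lower and 1 member, and cells of 10000 to 40000 UMIs gave 517, 354 and 3 members. Cluster in place of lineage, with at least 10 cells and no plasma cell-like cells left, gave 150, 32 and 0 members. In the third comparison cells of 3000 to 10000 UMIs gave 499 higher, 1045 lower and 1 member. No minimum of cells applied there. In the cycling comparison this window had no lineage with 20 cells of each state in each mouse; run with at least 10, which left myeloid-like cells alone, it gave 121 higher, 128 lower and 0 members.

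The members seen per cell, as means of mice, were 0.786, 0.0920, 0.410 and 0.271 in crypt-progenitor-like, enterocyte-like, cycling and resting leukocyte-like cells at 1000 UMIs, 1.45, 0.203, 0.781 and 0.528 at 2000, and 5.50, 0.558, 3.84 and 1.11 without thinning. Either mouse alone gives values with no test, from 1.49 to 5.95 (log2) for the 10 members in the first comparison, -0.92 to 1.49 in the second and -0.98 to 1.53 in the third. Few UMIs limit Impdh1, Pfas and Prps1 most in crypt-progenitor-like cells, with 32, 43 and 57 over both mice. In enterocyte-like cells Impdh1 and Pfas held 7 each, and Ppat (10) and Paics (19) held fewer than Prps1 (30).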
